A study of Mus musculus with 2 samples.

Results

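Acute-phase proteins are made in larger or smaller amounts when tissue is inflamed or injured. Here 10 genes were followed, all 10 of them found among the 21878 genes of each deposited table by their symbols. Their label speaks of proteins, but the list holds 5 secreted acute-phase proteins (Serpina3n, Lcn2, Saa3, Hp and Orm1), the membrane metalloreductase Steap4, the transcription factors Cebpb, Cebpd and Stat3, and the co-regulator Sbno2. The list was chosen with earlier results of these libraries known, so its members count as chosen by the ratio of shGpx4 over shNC, the same contrast described here. Its values are therefore a description, and no test is given for them. The further gene lists below were also chosen with earlier results of these libraries known, so their counts are likewise a description.

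RNA came from primary chondrocytes of C57BL/6 mice, the cells that build cartilage, cultured in medium with serum and given lentivirus. The shNC culture is the control, and the shGpx4 culture carried a hairpin against Gpx4, which encodes the lipid hydroperoxide reductase glutathione peroxidase 4. Each group is 1 library, so there is no replicate and no spread between cultures. The labels give neither the age or number of the animals nor the promoter that drives the hairpin. Values are FPKM, reads scaled by the length of the gene and the size of the library, so levels of different genes can be set beside each other. Ratios set shGpx4 over shNC as log2 after adding 1 to each FPKM, which makes differences of genes with low values look smaller. Where a fold of FPKM is given, its range is the exact 95% interval from the reads behind the values, which covers counting error only. Genes with a mean of at least 1 FPKM over both libraries are called measured.

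In liver, interleukin 6 acts through its receptor, Janus kinases and STAT3, and together with the C/EBP factors this drives the genes of acute-phase proteins. STAT3 also induces the gene of C/EBPδ, and interleukin 1 adds NF-kB to the same promoters. Outside the liver, fibroblasts, chondrocytes and fat cells make some of these proteins themselves under the same cytokines, above all lipocalin 2, serum amyloid A3 and serpin A3N.

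Library totals behind the FPKM values were 19729142 reads in shNC and 21313211 in shGpx4, and 10997 genes were measured. Gpx4 itself stood at 161 FPKM in shNC against 96.2 in shGpx4, a fold of 0.599 (0.569 to 0.630). Fibroblast genes were abundant in both libraries, with the 8 markers summing to 4576 FPKM in shNC against 6928 in shGpx4. Their ratios ran from -0.27 to 0.84, the highest being Dcn, with a median of 0.20. Of the 8, 2 were at least 1.5-fold higher, 6 lay within 1.5-fold and 2 were below 0. Of all measured genes 2.99% were at least 1.5-fold higher. Of 10 chondrocyte markers 5 were measured, and all 10 summed to 1829 FPKM in shNC against 1776 in shGpx4, mostly from Comp at 1666 and 1421 FPKM. Col2a1, the main cartilage collagen gene, was at 8.96 FPKM in shNC against 58.4 in shGpx4 (2.58), Lect1 was at 124 and 270 FPKM (1.12), and Sox9 was at 21.8 and 18.2 FPKM (-0.25). Acan, which encodes aggrecan, was at 0 in shNC and 0.0061 FPKM in shGpx4, and Matn1, a matrix protein gene of cartilage, was at 0 in both. The defining markers of the labelled cell type were thus present in part, and their part in the values of the 10 genes was not tested.

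Promoter sequence is shown for the 2 genes with the largest ratios, Serpina3n and Steap4, and for the 2 most abundant, Saa3 and Lcn2. RefSeq promoters of build GRCm38.p6 run from 250 bases before to 50 after a transcript start, and 7 of the 10 genes matched that table. Capitals mark matches on either strand to 4 motifs, which are TTCNNNGAA for STAT factors, TTGCNNAA for C/EBP factors, TATAAA for the TATA box and the NF-kB motif. The lines below read 5′ to 3′ on the gene's own strand, for Serpina3n at chr12:104406458-104406757 (plus), Steap4 at chr5:7960222-7960521 (plus), Saa3 at chr7:46715627-46715926 (minus) and Lcn2 at chr2:32387690-32387989 (minus).
Serpina3n: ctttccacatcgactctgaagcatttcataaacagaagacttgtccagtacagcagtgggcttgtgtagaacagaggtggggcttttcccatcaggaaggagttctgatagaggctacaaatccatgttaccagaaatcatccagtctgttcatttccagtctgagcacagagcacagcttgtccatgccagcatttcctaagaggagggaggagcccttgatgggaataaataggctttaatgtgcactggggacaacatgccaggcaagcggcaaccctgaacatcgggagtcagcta
Steap4: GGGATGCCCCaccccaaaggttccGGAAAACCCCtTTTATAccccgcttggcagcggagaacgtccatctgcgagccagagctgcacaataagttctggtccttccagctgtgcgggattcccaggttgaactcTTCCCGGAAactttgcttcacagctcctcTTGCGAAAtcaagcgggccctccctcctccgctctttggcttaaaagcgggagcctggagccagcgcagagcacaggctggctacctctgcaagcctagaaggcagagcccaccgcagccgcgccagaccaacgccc
Saa3: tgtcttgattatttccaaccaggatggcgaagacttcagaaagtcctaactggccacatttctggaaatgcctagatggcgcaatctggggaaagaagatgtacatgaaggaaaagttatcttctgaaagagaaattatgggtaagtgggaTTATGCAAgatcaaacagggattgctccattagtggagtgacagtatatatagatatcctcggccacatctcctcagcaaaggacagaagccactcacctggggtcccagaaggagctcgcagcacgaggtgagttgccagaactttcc
Lcn2: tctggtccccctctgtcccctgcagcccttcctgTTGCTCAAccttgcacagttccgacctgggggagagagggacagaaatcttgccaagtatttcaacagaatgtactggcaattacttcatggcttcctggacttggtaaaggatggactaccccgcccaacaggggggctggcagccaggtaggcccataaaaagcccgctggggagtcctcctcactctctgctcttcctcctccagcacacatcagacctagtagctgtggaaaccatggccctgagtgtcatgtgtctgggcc

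Steap4 held a STAT match, TTCCCGGAA, 116 bases before its start and a C/EBP match, TTGCGAAA, 87 bases before it. It also held 2 NF-kB matches that begin 250 and 226 bases before the start and a TATA match on the other strand, and no match overlapped another. Saa3 had a single match, a C/EBP sequence on the other strand that reads TTATGCAA as printed, 99 bases before the start. Lcn2 likewise had a single match, the C/EBP sequence TTGCTCAA, 216 bases before the start. The window of Serpina3n held none of the 4. Among the other matched genes, Sbno2 had a STAT match in 2 of its 3 promoters, at 26 and 24 bases before the start, and an NF-kB match in the remaining promoter. Cebpb had a TATA match 21 bases after its start, and Stat3 had no match. Of all 32851 promoters in the table, 8.30% held the STAT motif, 10.8% the C/EBP motif, 13.6% the TATA box and 8.46% the NF-kB motif. A match is a run of letters and was not shown to be bound, and its absence concerns this window only.

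Levels of the 10 genes spanned more than 4 orders of magnitude on the FPKM scale, from Saa3 at 4459 FPKM to Orm1 at 0.195 FPKM in shNC. Saa3 ranked 4th of all genes in shNC and 6th in shGpx4, and Lcn2 ranked 10th and 7th. Together these 2 genes made up 90.6% of the summed FPKM of the 10 in shNC and 84.4% in shGpx4. The 10 genes together held 2.05% of the FPKM of all genes in shNC and 2.54% in shGpx4. Of the increase of 1854 FPKM in that sum, Saa3 and Lcn2 gave 1084 FPKM and the other 8 genes 770.2 FPKM. The other 8 alone went from 732 FPKM to 1502 FPKM.

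**Figure D1:**
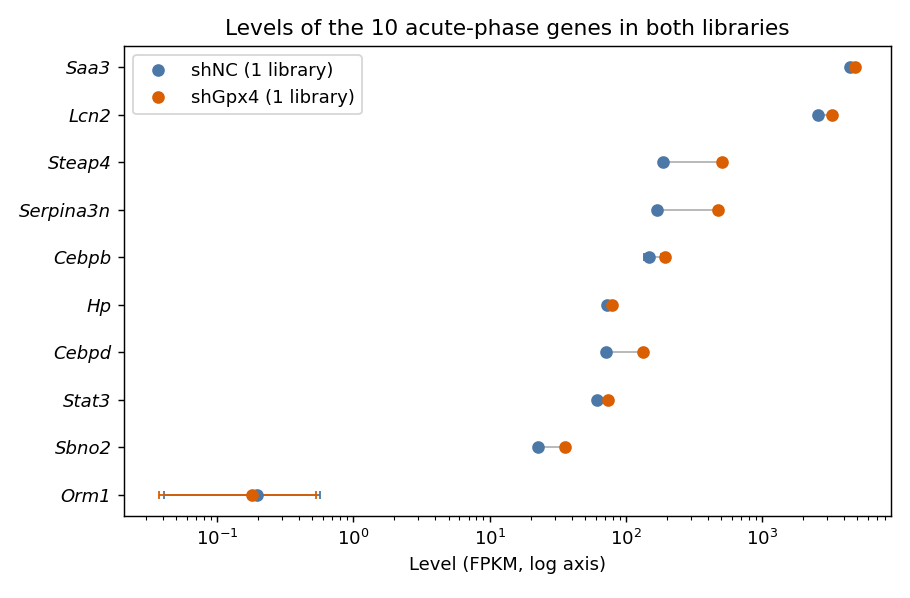
Level of each of the 10 genes in FPKM on a log axis, in shNC (blue) and shGpx4 (orange), 1 library each, with exact 95% Poisson intervals that cover counting error only. Saa3 and Lcn2 lie at 2564 FPKM or more in both libraries, Orm1 lies at 0.195 FPKM or less in both, and the gap between libraries is widest for Serpina3n and Steap4.

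The order of levels was nearly the same in both libraries. In shNC it ran Saa3, Lcn2, Steap4, Serpina3n, Cebpb, Hp, Cebpd, Stat3, Sbno2 and Orm1, and in shGpx4 Cebpd and Hp changed places. In shNC these neighbours did not differ beyond counting error, with Hp at 73.0 FPKM (69.8 to 76.4) and Cebpd at 71.2 FPKM (68.8 to 73.8). In shGpx4 Hp, at 79.4 FPKM (76.2 to 82.7), lay next to Stat3, at 74.4 FPKM (72.7 to 76.1).

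Of the 9 measured genes, 4 were at least 1.5-fold higher in shGpx4 and 0 at least 1.5-fold lower, while 2.99% of all measured genes were at least 1.5-fold higher and 1.96% at least 1.5-fold lower. All 9 had a ratio above 0, as did 41.3% of all measured genes. Their median was 0.39 against -0.04 over all measured genes. Since the genes were listed with this contrast known, nothing is read from these counts. The same shares over all measured genes are to be set beside each list count below.

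**Figure D2:**
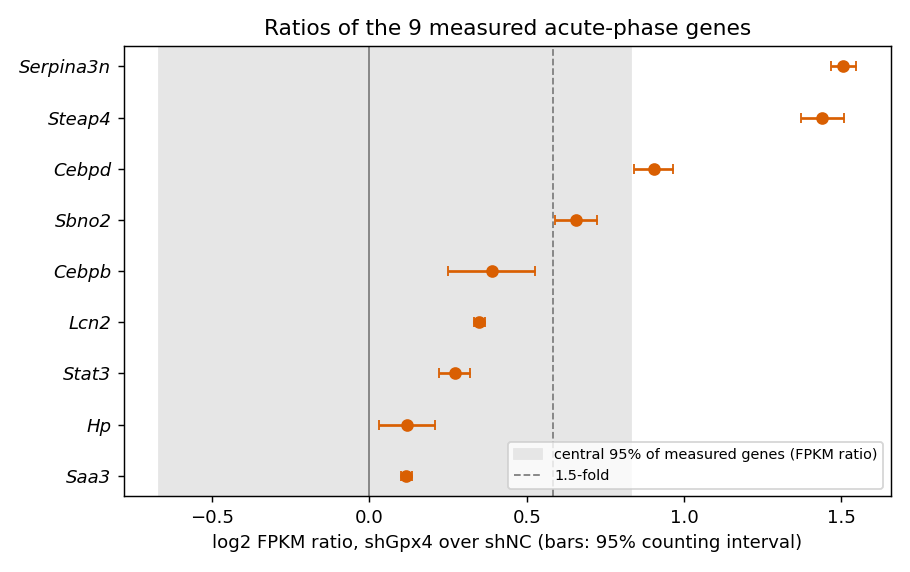
Log2 FPKM ratio of shGpx4 over shNC for the 9 measured genes, without a pseudocount, with exact 95% counting intervals as bars. The grey band is the central 95% of all measured genes, from -0.67 to 0.83, and the dashed line is 1.5-fold. Serpina3n, Steap4 and Cebpd lie to the right of the band, and Hp and Saa3 lie nearest to 0.

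Serpina3n had the largest ratio of the 10. It encodes a secreted serine protease inhibitor, the mouse counterpart of human alpha-1-antichymotrypsin, known to inhibit cathepsin G and granzyme B. It stood at 169 FPKM in shNC against 479 in shGpx4, a fold of 2.84 (2.76 to 2.92) from at least 6987 and 21436 reads. Its place among all genes by level moved from 295th to 80th, and 24 of the 10997 measured genes, itself included, had a log2 ratio at least as high. The gene lies on chromosome 12 from 104406646 to 104414334, within a cluster of related serpins. Of its 50-base transcript windows 6.90% occur in transcripts of other genes, so a small part of its reads could be shared.

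Lcn2 and Saa3 were abundant in both cultures and differed by far less. Lcn2 encodes lipocalin 2, which withholds iron from bacteria by binding their siderophores, and stood at 2564 FPKM in shNC against 3268 in shGpx4. That is a fold of 1.27 (1.26 to 1.29), a narrow interval because at least 43145 and 59406 reads lie behind it. Saa3, the serum amyloid A that mice make mainly outside the liver and that is a pseudogene in humans, stood at 4459 and 4839 FPKM, a fold of 1.09 (1.07 to 1.10). Within a library Saa3 was 1.74 times Lcn2 in shNC and 1.48 times Lcn2 in shGpx4, per length. No 50-base window of Lcn2 transcripts was shared with another gene, and 4.15% of those of Saa3 were. Lcn2 lies on chromosome 2 from 32384637 to 32387739, and Saa3 on chromosome 7 from 46711998 to 46719615.

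Hp and Orm1 are liver acute-phase genes in the main. Hp encodes haptoglobin, which captures free haemoglobin, and was at 73.0 FPKM in shNC against 79.4 in shGpx4. Its fold was 1.09 (1.02 to 1.16) from at least 1938 and 2276 reads, close to that of Saa3. Orm1, the gene of alpha-1-acid glycoprotein, was barely detected, at 0.195 FPKM in shNC against 0.181 in shGpx4. Each value comes from at least 3 reads, which is the floor used here, so no fold is given, and 20.4% of its 50-base windows also occur in Orm2. Hp was thus present at a moderate level while Orm1 was at the edge of detection in both cultures. Hp lies on chromosome 8 from 109575128 to 109579172, and Orm1 on chromosome 4 from 63344556 to 63348163.

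Steap4 was close to Serpina3n in level and in ratio. It encodes a membrane reductase of iron and copper ions that tumour necrosis factor and interleukin 6 induce in fat cells. Steap4 was at 187 FPKM in shNC against 508 in shGpx4, a fold of 2.71 (2.59 to 2.84) from at least 2319 and 6794 reads. Steap4 exceeded Serpina3n by 1.11 times in shNC and 1.06 times in shGpx4, and 28 measured genes, itself included, had a ratio at least as high as its 1.43. The gene spans 7960472 to 7982213 on chromosome 5, and none of its 50-base windows was shared with another gene.

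Among the transcription factors, Cebpd differed most. C/EBPδ is an early factor of the acute-phase response whose gene STAT3 induces. Cebpd was at 71.2 FPKM in shNC against 133 in shGpx4, a fold of 1.87 (1.79 to 1.95) from at least 3176 and 6417 reads. The gene, on chromosome 16 from 15887286 to 15889545, overlaps the annotated span of Spidr, a DNA repair gene at 7.90 and 9.73 FPKM, and 13.7% of its 50-base windows occur in Spidr transcripts. Cebpb, first found as nuclear factor of interleukin 6, was at 147 FPKM in shNC against 192 in shGpx4. Its fold was 1.31 (1.19 to 1.44), and its excess over Cebpd went from 2.06 times in shNC to 1.44 times in shGpx4. For the intronless Cebpb, on chromosome 2 from 167688915 to 167690432, the annotated length of 1518 bases is 6 times the smallest length that gives both values. If that length was used, the reads were 4404 and 6228 and the log2 interval narrows to 0.33 to 0.44. Of its windows 18.1% occur in transcripts assigned to Tmem189, a gene near it.

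Stat3 and Sbno2 completed the group. Stat3, the factor that carries the interleukin 6 signal to the nucleus, was at 61.6 FPKM in shNC against 74.4 in shGpx4, a fold of 1.21 (1.17 to 1.25). Sbno2, a helicase-like co-repressor that STAT3 induces in macrophages, was at 22.5 FPKM in shNC against 35.5 in shGpx4. Its fold was 1.58 (0.59 to 0.72 in log2), with 2853 and 4855 reads or more behind the levels, and 283 measured genes, itself included, had a ratio at least as high as its 0.63. Stat3 lies on chromosome 11 from 100886806 to 100939594. Sbno2, on chromosome 10 from 80056992 to 80106108, is transcribed from the minus strand and ends 552 bases from Gpx4, the gene the hairpin was directed against. Its neighbour on the other side, the kinase gene Stk11, was at 34.7 and 35.5 FPKM, a ratio of 0.03.

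**Figure D3:**
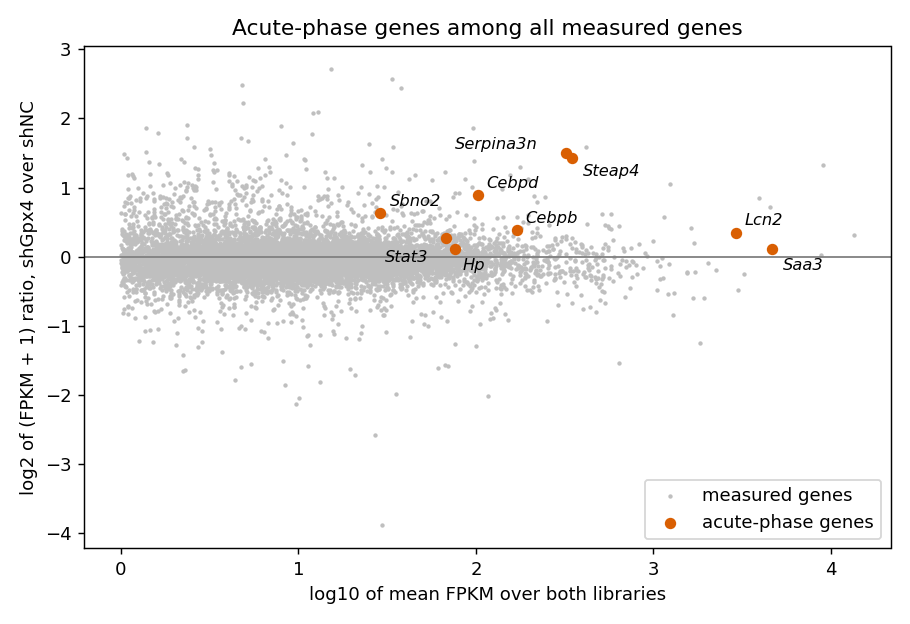
Log2 of (FPKM + 1) ratio of shGpx4 over shNC against the log10 of the mean FPKM for the 10997 measured genes (grey), with the 9 measured acute-phase genes in orange. Serpina3n stands highest, followed by Steap4 at 1.43, Cebpd at 0.89 and Sbno2 at 0.63, while Saa3 and Hp lie at 0.12.

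The relatives of these genes show which copy dominates in each family. Saa1 and Saa2, the serum amyloids of the liver, were at 9.16 and 8.43 FPKM in shNC and at 11.2 and 10.9 FPKM in shGpx4. Saa3 was thus 487 times Saa1 in shNC and 432 times in shGpx4, and Saa1 and Saa2 share 31.1% of the windows of Saa1. Their ratios of 0.26 and 0.33 were larger than that of Saa3, but the counting interval of Saa1 held 0 (-0.01 to 0.59). Orm2 was at 0 in shNC and 0.182 FPKM in shGpx4, and Orm3 was below 0.1 FPKM in both.

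In the Serpina3 cluster 10 of the 11 genes listed were in the tables and 5 were measured, all 5 with a ratio above 0 and 3 at least 1.5-fold higher. Of all measured genes 41.3% had a ratio above 0 and 2.99% were at least 1.5-fold higher. The counting interval of Serpina3g (0.18) held 0 (-0.07 to 0.49). The list of the cluster, like the 10 genes, was chosen with earlier results of these libraries known. Among the 3 higher genes was Serpina3n. The others were Serpina3i, at 2.84 FPKM in shNC against 5.87 in shGpx4 (0.84), and Serpina3m, at 1.31 and 2.98 FPKM (0.79). Of the windows of Serpina3m 19.1% occur elsewhere, mainly in Serpina3k, and of those of Serpina3i 15.9%, so their values are uncertain. Serpina3n was 28.5 times Serpina3f in shNC and 54.2 times in shGpx4. Beyond the cluster, Gsc, a homeobox gene 56874 bases further on, was at 32.4 and 23.0 FPKM, a ratio of -0.47.

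Of the 4 STEAP genes 3 were at least 1.5-fold higher in shGpx4, among them Steap4, against 2.99% of all measured genes. Both Steap4 and the family list were chosen with earlier results of these libraries known. Steap1, a family member without reductase activity of its own, was at 53.7 FPKM in shNC against 141 in shGpx4 (1.38). Steap2, another metalloreductase, was at 37.8 and 66.7 FPKM (0.80). Steap3, the reductase that serves iron uptake from transferrin in red cell precursors, was at 83.2 and 79.6 FPKM (-0.06). Steap1 and Steap2 are neighbours of Steap4 on chromosome 5, with no other measured gene annotated between Steap1 and Steap4 over 2211154 bases. The next measured gene beyond Steap4, Sri, was at -0.21.

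**Figure D4:**
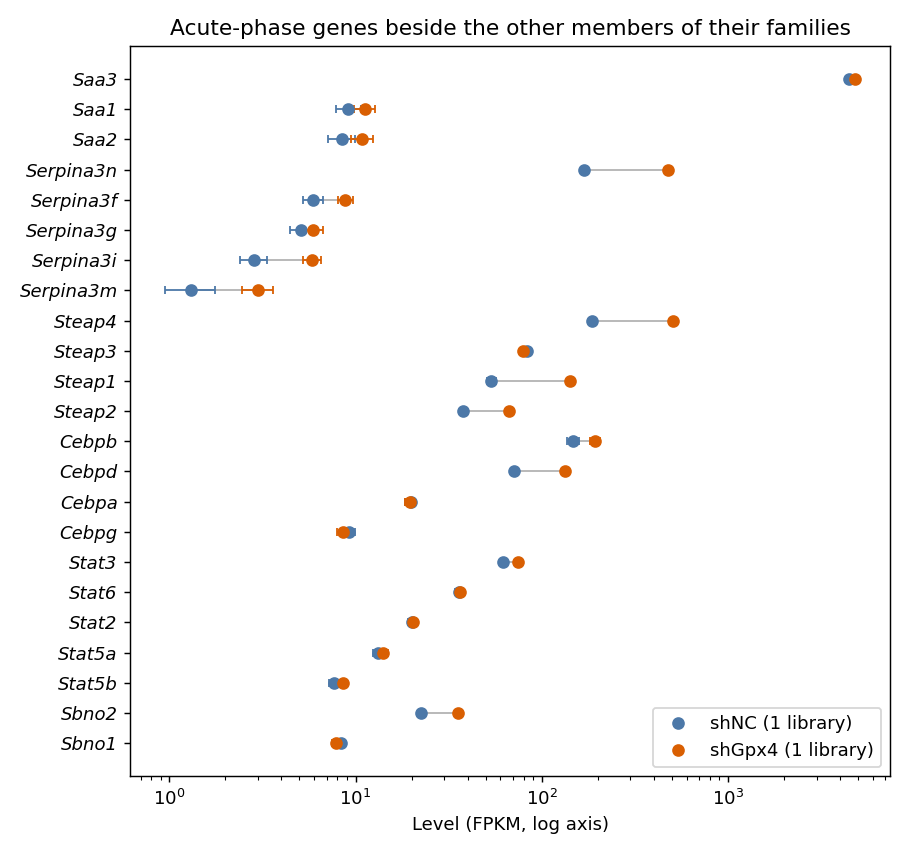
Levels in FPKM on a log axis of the acute-phase genes beside measured relatives, in shNC (blue) and shGpx4 (orange), 1 library each, with exact 95% Poisson intervals for counting error. Not every relative is drawn. Saa3 and Serpina3n exceed their relatives in both libraries, and Steap1, Steap2 and Steap4 are higher in shGpx4 while Steap3 is not.

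Within the C/EBP family Cebpd and Cebpb had the highest ratios of the 6 measured genes. Cebpa, the family member of mature fat and liver cells, was at 19.7 FPKM in shNC against 19.6 in shGpx4 (-0.01, interval -0.14 to 0.11). Cebpg (-0.10) and Cebpz (-0.04) also had intervals that hold 0, and Ddit3, the stress-induced C/EBP partner, was lower (13.0 against 8.18 FPKM, -0.60). In the STAT family Stat3 had the highest ratio of the 6 measured genes. Cebpb, Cebpd and Stat3 were listed with this contrast known, so nothing is read from their places. Stat5b (0.14) and Stat5a (0.10), which lie beside Stat3 on chromosome 11, differed less. Sbno1, the relative of Sbno2, was at 8.31 and 7.81 FPKM (-0.08).

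Other acute-phase genes that rise in inflammation were partly present. Of 34 such genes 17 were measured, 8 of them at least 1.5-fold higher in shGpx4, 1 at least 1.5-fold lower and 8 between. Their median ratio was 0.50. Of all measured genes 2.99% were at least 1.5-fold higher and 1.96% at least 1.5-fold lower, with a median of -0.04. This list was chosen with earlier results of these libraries known, so nothing is read from its counts. Mt2 and Mt1, which encode zinc-binding metallothioneins, had the largest ratios, Mt2 at 208 FPKM in shNC against 629 in shGpx4 (1.59) and Mt1 at 94.0 and 216 FPKM (1.19). Lrg1, a secreted glycoprotein gene that STAT3 drives, was at 3.30 and 8.15 FPKM (1.09). Ptx3, a long pentraxin made outside the liver, was at 150.4 and 277 FPKM (0.88). Slpi (0.72), F3, the tissue factor gene (0.67), and Tnfaip6, whose product binds hyaluronan (0.66), were also past 1.5-fold. The complement gene C4b was lower, at 133 and 83.7 FPKM (-0.66). Well-expressed genes that differed less were Cfb (0.50), the ferroxidase gene Cp (0.24), the lipopolysaccharide binding protein gene Lbp (0.12) and C3 (-0.17). Of the 17 below the filter 8 were at 0 in both libraries, among them Crp, Apcs and both hepcidin genes.

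Genes of plasma proteins that fall in the liver response were mostly absent, with 3 of 10 measured. Trf, the transferrin gene, was at 21.5 FPKM in shNC against 9.74 in shGpx4 (-1.07), and Rbp4, which carries retinol, at 3.67 and 1.56 FPKM (-0.87). Serpina6, which encodes the corticosteroid binding globulin, went the other way, at 3.52 and 10.1 FPKM (1.30). None of the 6 Serpina1 genes was measured.

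Of 8 listed ligands of the interleukin 6 family 5 were measured, and all 8 summed to 24.1 FPKM in shNC against 28.4 in shGpx4. Most of this came from Ctf1 at 10.6 and 9.88 FPKM (-0.10), Clcf1 at 7.85 and 10.8 FPKM (0.42) and Cntf at 4.63 and 3.54 FPKM (-0.31), whose products signal through the same Il6st subunit. Il6 was at 0.311 FPKM in shNC against 2.01 in shGpx4. The smallest reads that fit are 1 and 7, over a length of 163 bases, with a log2 counting interval of -0.26 to 8.19. If the true length and reads are a multiple of these, the interval is narrower, so whether it holds 0 is not known. Lif, a relative that uses the same signalling receptor, was at 0.419 and 1.79 FPKM (0.97, interval of the log2 FPKM ratio without a pseudocount 1.35 to 2.92). Il6 and Lif reached a mean of 1 FPKM only through shGpx4, so they could hardly be other than higher there. Il1a, Il1b, Il17a, Osm and Il27 were at 0 in both libraries. Receptors differed little: the shared subunit Il6st was at 387 and 404 FPKM (0.06), and of 8 measured receptor and kinase genes 0 were at least 1.5-fold higher and 1 lower, Il11ra1 (-0.59). Osmr, the oncostatin M receptor gene, was at 92.7 and 122 FPKM (0.40), and Jak1 at 86.2 and 109 FPKM (0.34). Of 11 measured genes of interleukin 1 and 17 signalling none passed 1.5-fold in either direction, with Il17rc (0.45), Map3k8 (0.36) and Il1r1 (0.25) the highest. Nfkbiz, which encodes a partner of NF-kB needed for Lcn2 induction, was at 22.2 and 25.8 FPKM (0.21).

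Genes known to respond to STAT3 were higher in part. Of 20 measured genes other than the 10, 6 were at least 1.5-fold higher and 0 lower, with a median of 0.30. Of all measured genes 2.99% were at least 1.5-fold higher and 1.96% at least 1.5-fold lower, with a median of -0.04. This list and the next were chosen with earlier results of these libraries known, so nothing is read from their counts. Socs3, the feedback inhibitor of this pathway, was at 12.6 FPKM in shNC against 33.2 in shGpx4 (1.33). Lrg1 and Timp1, an inhibitor of metalloproteinases at 810.3 and 1679 FPKM (1.05), followed, and then Birc5 (0.88), Bcl3 (0.75) and Junb (0.59). Others stayed within 1.5-fold, such as Pim1 (0.19), Mcl1 (0.07), Bcl6 (-0.02) and Icam1 (-0.14). Birc5 is also a cell division gene, and it reached a mean of 1 FPKM only through shGpx4. Of 12 measured inflammatory genes that respond to C/EBP factors, 7 were at least 1.5-fold higher and 1 at least 1.5-fold lower, with a median of 0.70. Higher were the matrix protease genes Mmp3 (1.33) and Mmp13 (1.30), Il6, Ptx3, Cxcl1 (0.87), Ptgs2 (0.74) and Tnfaip6. The reads of Il6 are known only as a minimum. It reached a mean of 1 FPKM only through shGpx4, so its place among the higher genes follows in part from the filter. G0s2, a lipolysis inhibitor gene, was lower (-0.72). Ptx3, Tnfaip6 and Lrg1 stand in more than 1 list, so the counts overlap.

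**Figure D5:**
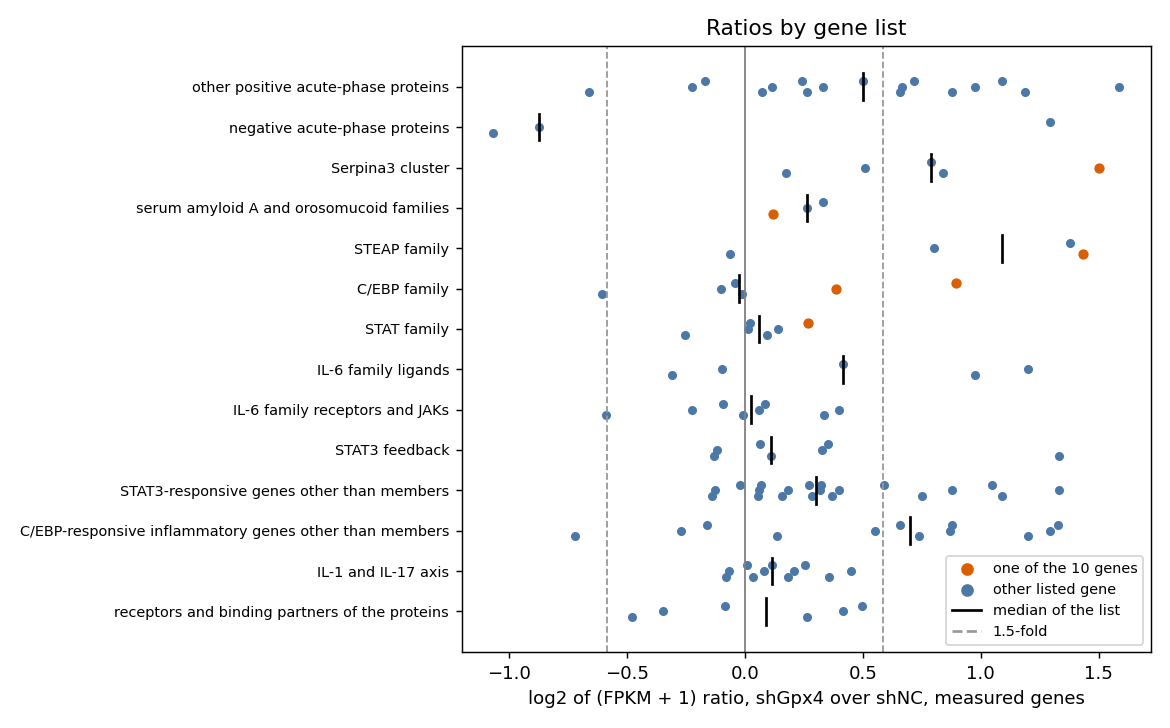
Log2 of (FPKM + 1) ratio of shGpx4 over shNC for each measured gene of 14 gene lists, with the acute-phase genes in orange, other genes in blue and the list median as a black bar. Medians of the receptor and kinase lists and of the interleukin 1 and 17 axis lie near 0. Those of the STEAP, Serpina3 and C/EBP-responsive lists lie further to the right. Single genes spread around the medians, with the lowest STEAP gene at -0.06 and the lowest C/EBP-responsive gene at -0.72.

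Markers of other cell types were set beside these values. Of 10 hepatocyte markers 1 was measured, Apoh at 1.19 and 1.30 FPKM, and their sum was 1.81 FPKM in shNC against 1.60 in shGpx4, with Ttr, Apob, Tat and Cyp2e1 at 0 in both. The neutrophil markers summed to 7.34 and 6.71 FPKM, of which Camp gave 7.02 and 6.66 FPKM, and 7 of 10 were at 0 in both. Of the macrophage and leukocyte markers 3 of 10 were measured, with a sum of 21.5 and 23.2 FPKM, and Ptprc, Fcgr1 and Cd163 were at 0 in both. The measured ones differed in direction, Cd14 being higher (9.19 FPKM in shNC against 17.1 in shGpx4, 0.83), Lyz2 lower (7.67 against 1.86 FPKM, -1.60) and Cd68 close (3.90 against 3.80 FPKM, -0.03), and their part in the values of the 10 genes was not tested. In bulk RNA fewer cells of a type and less RNA per cell cannot be told apart. The 8 cell division markers, all measured, summed to 25.9 FPKM in shNC against 60.5 in shGpx4, 7 of them at least 1.5-fold higher. Of all measured genes 2.99% were at least 1.5-fold higher. At least Birc5 and Bub1 reached a mean of 1 FPKM only through shGpx4. Of the 8 fibroblast markers Dcn had the largest ratio, at 2808 and 5042 FPKM (0.84), and 6 lay within 1.5-fold. The part of cell division and of fibroblast-like cells in the values of the 10 genes was not tested.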

How the data were processed

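Messenger RNA libraries of 2 mouse chondrocyte cultures, 1 per group, were compared, with groups taken from the treatment label. The authors deposited 1 table of FPKM per library. The mouse build GRCm38 and the tools Trimmomatic, HISAT2 and Cufflinks stand in the submitters' processing notes, without versions. How strand was set is not given in the sources used here, so overlapping genes and gene copies may share reads. Library totals and reads were recovered from the steps of the FPKM values. All 15153 genes above 0 gave whole reads within 1e-06, and these are the smallest reads that fit both libraries, so that true reads may be a multiple. With 1 library per group no test was made. Genes were counted at 1.5-fold, on log2(FPKM + 1), and named by rule: Gpx4, the 10 genes, and in each list the measured genes past 1.5-fold or up to 4 others. Genes within 1.5-fold in lists with larger differences, genes below the filter, and Gsc, Sri, Stk11, Spidr and Tmem189 were named after their values were seen. The 10 genes and the lists were chosen with earlier results of these data known. Of 172 further listed genes 171 were in the tables, and Serpina3h is not analysed here. Some listed genes enter the counts but are not reported singly here. Promoters and coordinates are RefSeq's (GRCm38.p6), and 50-base windows came from GENCODE transcripts. The computation was tested on simulated data. Python 3.11.15 ran numpy 2.4.6, scipy 1.17.1 and pandas 2.3.3, with figures from matplotlib 3.10.9.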

Additional observations from a re-analysis of the deposited data

How the results depend on the processing

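No paired analysis was possible because each group is 1 library, and no library could be left out. The alternatives were centring on the median, a pseudocount of 0.1, scaling by the 75th percentile, by a trimmed mean or to a common sum, a minimum mean of 5 FPKM, no filter, and the ratio of recovered reads with 0.5 reads added. Under all 8 the number of the 10 genes at least 1.5-fold higher stayed at 4 and the number lower at 0, and their median lay between 0.37 and 0.43. Of 80 alternative ratios of single genes 74 lay inside the counting interval, and the 6 outside it were of Lcn2 and Saa3. The sign was the same in 79, the exception being Orm1, which is at the read floor. The changes of filter leave single ratios as they were by construction. The largest scaling factor of shGpx4 over shNC was -0.044 in log2, so little movement was possible. Among the other listed genes, 107 of them measured, 25 were at least 1.5-fold higher and 7 lower. Of all measured genes 2.99% were higher and 1.96% lower by that rule. The alternatives gave 20 to 26 listed genes higher and 5 to 9 lower. Depth limits Orm1, Il6 and the Saa1 and Saa2 ratios, and the reads of Il6 are known only as a minimum. The missing replicates limit every value.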

Other observations

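Genes that respond to glucocorticoids, listed together with the gene of the glucocorticoid receptor, did not share a direction. Of 8 listed genes 7 were measured, 1 at least 1.5-fold higher in shGpx4 and 1 at least 1.5-fold lower. Dusp1, a phosphatase of MAP kinases, was at 30.7 FPKM in shNC against 47.1 in shGpx4 (0.60), and Tsc22d3, which encodes the leucine zipper protein GILZ, was at 18.1 and 9.64 FPKM (-0.85). Fkbp5 (0.26), Sgk1 (0.25) and Klf9 (0.20) lay between, as did the receptor gene Nr3c1 (-0.07).

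Receptors and partners of the secreted proteins were sparsely expressed, with 6 of 15 measured and 0 past 1.5-fold in either direction. Slc22a17, described as a lipocalin 2 receptor, was at 9.76 FPKM in shNC against 7.47 in shGpx4 (-0.35). Lrp1, which clears protease complexes and haem-bound haemopexin, was at 189 and 252 FPKM (0.41), and Scarb1, a lipoprotein receptor that also binds serum amyloid A, at 8.72 and 12.7 FPKM (0.50), while Ager was at 1.45 and 0.760 FPKM (-0.48). Of 9 lipocalin relatives 3 were measured, Lcn2, Apod (0.08) and Rbp4. Cd163, the haptoglobin-haemoglobin receptor of macrophages, and the serpin targets Ctsg and Gzmb were at 0 in both libraries. Adipocyte markers were few, with Fabp4 at 2.08 and 1.87 FPKM and Lpl at 1.44 and 0.637 FPKM, while Adipoq was at 0.165 FPKM in shNC and 0 in shGpx4.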
